A study of Homo sapiens with 6 samples.

Results

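The 10 dual-specificity MAP kinase phosphatases, DUSP1, DUSP2, DUSP4, DUSP5, DUSP6, DUSP7, DUSP8, DUSP9, DUSP10 and DUSP16, were followed by RNA sequencing in IOMM-Lee cells under hypoxia. They were taken by symbol, and all 10 had a row among the 61859 genes counted. IOMM-Lee is an established line from a grade 3 (malignant) meningioma, which arises in the meninges, so the results describe 1 line. The hypoxia group was 3 cultures kept for 48 h in a workstation at 0.2% oxygen, and the normoxia group was 3 control cultures labelled with the same time. No gene was altered, and both groups had the same serum-containing medium.

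These phosphatases switch MAP kinases off by removing phosphate from both the threonine and the tyrosine of the kinase activation loop. Their substrates are ERK, which carries growth factor signals, and JNK and p38, which carry stress signals. DUSP1, DUSP2, DUSP4 and DUSP5 are nuclear and transcribed within minutes to hours of a stimulus, DUSP6, DUSP7 and DUSP9 are cytoplasmic and prefer ERK, and DUSP8, DUSP10 and DUSP16 act mainly on JNK and p38. Several of them are transcribed in response to the pathway they inhibit, which makes them negative feedback regulators.

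In hypoxia, DUSP1 and DUSP7 rose, no tested phosphatase of the family was significantly lower, and the remaining 6 tested members did not pass the test. The 3 hypoxia cultures did not behave alike: in hypoxia replicate 3, DUSP1 and DUSP4 were about 3 times as high as in the other hypoxia cultures. DUSP5 and DUSP6 were lowest in that replicate, as were 38.8% of all tested genes. DUSP2 and DUSP9 had too few counts to be tested. The 8 tested members set against all genes gave 2 higher and 0 lower, where 31.2% of the 16411 tested genes were higher and 31.0% lower, 62.2% in all, at an adjusted p under 0.05 in edgeR's quasi-likelihood test. The share of risen members was thus no higher than that background.

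The stretches just upstream of the genes are shown for the risen DUSP1 and DUSP7, and for DUSP8, since it shares an 8-letter motif with DUSP1. They are the 250 bases before the RefSeq transcription start on GRCh38.p14, read along the gene's own strand, which is the minus strand for each. Capitals mark ACGTG and GCGTG, the core letters that hypoxia-inducible factors bind, and TGACG, the core of the cyclic AMP response element, found on either strand. DUSP1 lies at chr5:172771196-172771445, DUSP7 at chr3:52056572-52056821 and DUSP8 at chr11:1572272-1572521, where the RefSeq start lies upstream of the GENCODE gene's outer end.
DUSP1: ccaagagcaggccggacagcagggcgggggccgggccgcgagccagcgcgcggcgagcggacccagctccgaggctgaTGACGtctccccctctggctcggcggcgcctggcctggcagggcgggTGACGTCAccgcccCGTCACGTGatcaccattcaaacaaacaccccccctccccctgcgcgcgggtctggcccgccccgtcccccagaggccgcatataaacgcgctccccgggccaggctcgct
DUSP7: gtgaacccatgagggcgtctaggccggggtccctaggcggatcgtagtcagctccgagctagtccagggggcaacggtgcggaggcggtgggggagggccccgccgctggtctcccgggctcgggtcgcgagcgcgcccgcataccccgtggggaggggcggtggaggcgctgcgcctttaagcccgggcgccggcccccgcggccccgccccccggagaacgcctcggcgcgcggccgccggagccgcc
DUSP8: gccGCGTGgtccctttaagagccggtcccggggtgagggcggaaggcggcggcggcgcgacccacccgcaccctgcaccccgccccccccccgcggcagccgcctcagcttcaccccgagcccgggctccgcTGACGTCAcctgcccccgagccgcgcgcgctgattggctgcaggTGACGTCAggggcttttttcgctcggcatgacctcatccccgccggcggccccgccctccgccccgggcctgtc
In the DUSP1 stretch, ACGTG was found 2 times, both from the palindrome CACGTG read on either strand. TGACG was found there 4 times, including both strands of the full palindrome TGACGTCA and once overlapping CACGTG. DUSP8 held TGACGTCA at 2 places and 1 GCGTG, and DUSP7 held none of these letters. The stretch before DUSP2, which is not shown, also held CACGTG, and this gene had too few counts to be tested. Of 35116 stretches of the same length before RefSeq starts, 43.2% held ACGTG or GCGTG, 21.2% held TGACG and 1.65% held TGACGTCA. RefSeq entries were matched for 8 of the 10 genes, with 10 starts, and 7 of these 10 held ACGTG or GCGTG. They were starts of DUSP1, DUSP2, DUSP6, DUSP8, DUSP10 and DUSP9, the last counted with both of its starts. Of these genes, DUSP1 alone was called higher in hypoxia. The letters TGACG were found in 2 of the 10, those of DUSP1 and DUSP8, and the same 2 held TGACGTCA. A match is a description of letters and not evidence of binding.

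DUSP1, an immediate-early gene that inactivates p38, JNK and ERK, had the larger of the 2 rises. The gene lies on chromosome 5 (ENSG00000120129, 172768090 to 172771195, minus strand, GRCh38). It had 282, 244 and 923 CPM, counts scaled to the TMM-adjusted library size, in hypoxia replicates 1, 2 and 3, against 98.9, 90.7 and 108 CPM in normoxia replicates 1, 2 and 3. Every hypoxia culture was above every normoxia culture, and replicate 3 stood far above the other hypoxia cultures, at 3.51 times their mean. The group means were 483 ± 382 CPM in hypoxia and 99.0 ± 8.40 CPM in normoxia (SD, n = 3 each). The fitted change was 4.88-fold, a log2 change of 2.29 ± 0.60 (SE, 95% interval 0.75 to 3.83, edgeR adjusted p = 0.0222). Without hypoxia replicate 3 the log2 change was smaller, at 1.38, with adjusted p = 3.36e-08. The call was lost without normoxia replicate 2 (log2 change 2.23, edgeR adjusted p = 0.062) and when no low-count filter was used (2.19, adjusted p = 0.109).

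DUSP4, the closest nuclear relative of DUSP1 and likewise induced by ERK signalling, showed the widest disagreement about direction. It lies on chromosome 8 (ENSG00000120875, 29333064 to 29350668, minus strand). It had 64.8, 72.6 and 208 CPM in hypoxia, against 138, 149 and 163 CPM in normoxia. Hypoxia replicates 1 and 2 lay below every normoxia culture, while replicate 3 lay above every one, at 3.03 times the mean of the other hypoxia cultures. The means were 115 ± 80.5 CPM in hypoxia and 150 ± 12.6 CPM in normoxia (SD, n = 3 each), with a log2 change of -0.37 ± 0.50 (95% interval -1.65 to 0.91, edgeR adjusted p = 0.555). Without hypoxia replicate 3, DUSP4 was lower in hypoxia by a log2 change of -1.15 (edgeR adjusted p = 3.5e-07).

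DUSP5, a nuclear phosphatase selective for ERK, lies on chromosome 10 (ENSG00000138166, 110497838 to 110511544, plus strand). It had 117, 115 and 90.6 CPM in hypoxia, against 98.6, 95.8 and 105 CPM in normoxia. Hypoxia replicates 1 and 2 were above, and replicate 3 below, all 3 normoxia cultures, the opposite arrangement to DUSP4. The log2 change was 0.11 ± 0.11 (95% interval -0.14 to 0.35, edgeR adjusted p = 0.434).

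DUSP2, a nuclear phosphatase best known from activated lymphocytes, was near the detection limit. The gene lies on chromosome 2 (ENSG00000158050, 96143166 to 96145440, minus strand). It had 1, 2 and 5 counts in hypoxia, against 12, 13 and 10 counts in normoxia, too few for the filter. Pooled over each group this was 0.223 CPM in hypoxia (exact Poisson 95% interval 0.0962 to 0.439) and 0.625 CPM in normoxia (0.435 to 0.869), intervals that cover counting error alone. With no low-count filter, its log2 change was -1.62 ± 0.75 and did not pass (edgeR adjusted p = 0.0966).

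**Figure D1:**
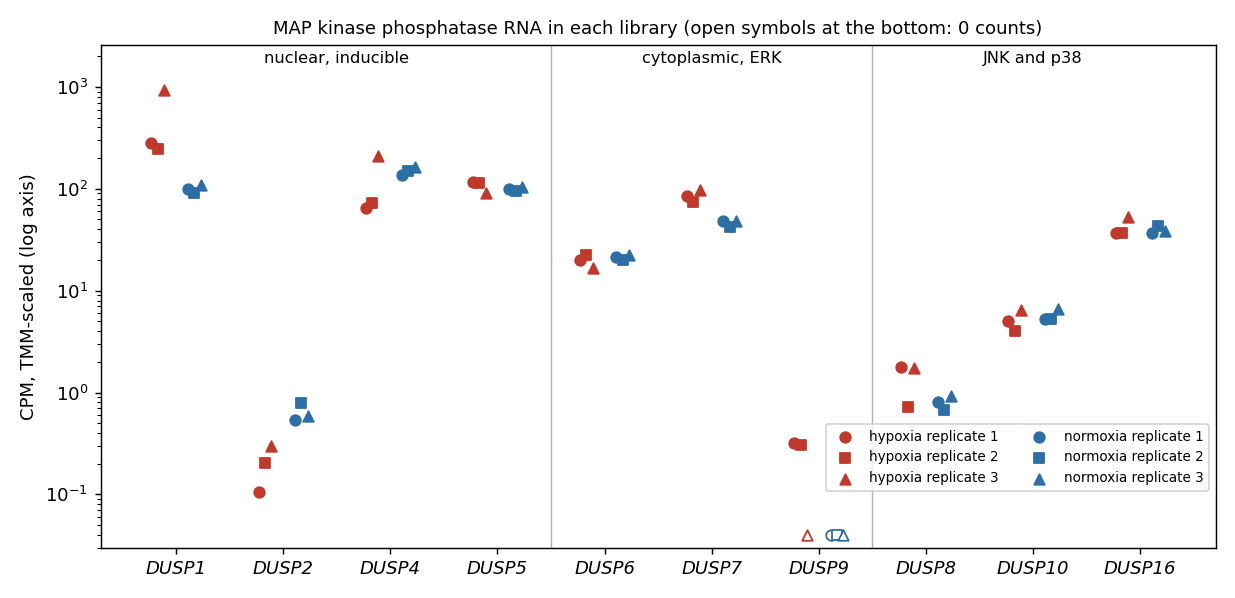
CPM of each phosphatase gene in each library on a log axis, with hypoxia in red to the left of normoxia in blue, a symbol shape per replicate number, and open symbols for 0 counts. DUSP1 and DUSP7 are the tested genes whose hypoxia points all lie above the normoxia points, and hypoxia replicate 3 (triangle) of DUSP1 and DUSP4, at 923 and 208 CPM, lies far above the other hypoxia points.

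DUSP7, a cytoplasmic ERK phosphatase, rose to a similar level in all hypoxia cultures. It lies on chromosome 3 (ENSG00000164086, 52048919 to 52056550, minus strand). It had 84.5, 75.0 and 96.9 CPM in hypoxia, against 48.4, 41.7 and 48.0 CPM in normoxia, so the groups did not overlap. The means were 85.4 ± 10.9 CPM in hypoxia and 46.0 ± 3.74 CPM in normoxia (SD, n = 3 each), a 1.86-fold rise. The log2 change was 0.89 ± 0.12 (95% interval 0.63 to 1.16, edgeR adjusted p = 7.77e-05). Across the 14 alternative settings it lay between 0.58 and 0.96, with adjusted p from 6.73e-09 to 0.00136. DUSP1 and DUSP7 were the 2 of 8 tested members whose groups did not overlap, which held for 67.9% of all tested genes.

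DUSP6, the cytoplasmic ERK phosphatase widely read as a gauge of ERK activity, lies on chromosome 12 (ENSG00000139318, 89347232 to 89353271, minus strand). It had 19.9, 22.2 and 16.5 CPM in hypoxia, against 21.6, 20.2 and 22.4 CPM in normoxia. The groups overlapped, with hypoxia replicate 3 the lowest library. The log2 change was -0.14 ± 0.14 (95% interval -0.45 to 0.18, edgeR adjusted p = 0.427). Scaling by library totals alone gave -0.44 with adjusted p = 0.0217. Under that scaling the median of all tested genes was -0.30, against 0.01 under TMM. DUSP6 shares 1875 exon bases with the opposite-strand gene AC024909.2, which had 6 to 13 counts in any library, and without a stated strand setting their reads cannot be told apart.

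DUSP9, the third cytoplasmic ERK phosphatase and the one known from placenta and insulin-responsive tissue, had 3, 3 and 0 counts in hypoxia and 0 in each normoxia library. A count of 0 allows up to 0.0536 CPM over the normoxia group. The gene lies on chromosome X (ENSG00000130829, 153642492 to 153651326, plus strand), and it was not tested. With no low-count filter, its log2 change was 4.52 ± 1.92 and did not pass (edgeR adjusted p = 0.0634). That value depends on the prior count, since normoxia was at 0.

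Among the JNK and p38 phosphatases, no gene passed the test. DUSP16, which shuttles between nucleus and cytoplasm and prefers JNK, had 37.1, 36.4 and 52.4 CPM in hypoxia, against 36.6, 42.9 and 38.3 CPM in normoxia. The gene lies on chromosome 12 (ENSG00000111266, 12474210 to 12562383, minus strand). Hypoxia replicate 3 was the highest library, and the other hypoxia cultures lay within or just below the normoxia range. Its log2 change was 0.10 ± 0.15 (95% interval -0.23 to 0.43, edgeR adjusted p = 0.567), and -0.12 without hypoxia replicate 3.

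DUSP10, which acts on JNK and p38, had 5.06, 3.98 and 6.50 CPM in hypoxia, against 5.32, 5.27 and 6.54 CPM in normoxia. The gene lies on chromosome 1 (ENSG00000143507, 221701424 to 221742176, minus strand). The groups overlapped, with a log2 change of -0.12 ± 0.23 (95% interval -0.64 to 0.39, edgeR adjusted p = 0.669). DUSP8, a JNK and p38 phosphatase best known from neurons and heart, had 1.79, 0.714 and 1.75 CPM in hypoxia, against 0.799, 0.674 and 0.934 CPM in normoxia. Hypoxia replicates 1 and 3 were above all normoxia libraries, and replicate 2 lay within their range. DUSP8 lies on chromosome 11 (ENSG00000184545, 1554044 to 1571920, minus strand). With 98 counts over all 6 libraries, its log2 change was 0.84 ± 0.43 (95% interval -0.10 to 1.77, edgeR adjusted p = 0.109). Without hypoxia replicate 2 it passed, at 1.12 with adjusted p = 0.0316.

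**Figure D2:**
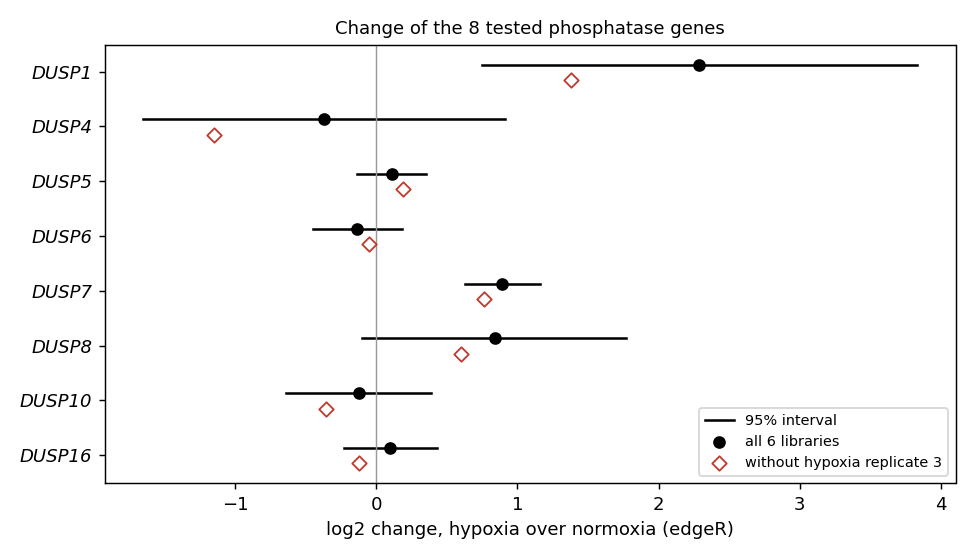
Log2 change of the 8 tested genes, hypoxia over normoxia, from edgeR: filled points are the fit of all 6 libraries with lines for the 95% interval, and open diamonds the fit without hypoxia replicate 3. The intervals of DUSP1 (0.75 to 3.83) and DUSP7 (0.63 to 1.16) lie above 0, and DUSP4 moves to -1.15 without that library.

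The spread among hypoxia cultures was then measured as the range of log2 CPM within the group. It was 1.92 for DUSP1, 1.68 for DUSP4 and 1.19 for DUSP8, and between 0.36 and 0.69 for the other 5 tested members. A range as large as that of DUSP1 was found in 2.46% of tested genes, as large as that of DUSP4 in 4.20%, and as large as that of DUSP8 in 11.6%. The range exceeded 1 in 3 of 8 members, against 16.8% of all tested genes. For DUSP8 it rested on 17, 7 and 29 counts in hypoxia replicates 1, 2 and 3. Its exact Poisson 95% intervals overlapped in hypoxia replicates 1 (1.04 to 2.87 CPM) and 2 (0.287 to 1.47 CPM). Among normoxia cultures no tested member had a range above 0.40. Those of DUSP1 and DUSP4 were 0.24 each. The median range of all tested genes was also smaller in normoxia, at 0.26 against 0.46 in hypoxia.

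Hypoxia replicate 3 was the highest hypoxia library for DUSP1, DUSP4, DUSP7, DUSP10 and DUSP16, 5 of 8 tested members, against 37.9% of all tested genes. It was the lowest for DUSP5 and DUSP6, and for 38.8% of all tested genes. A level at least 2-fold above the mean of the other hypoxia cultures, as DUSP1 and DUSP4 had, was found for 471 genes, 2.87% of those tested. The library itself stood apart in the data as a whole. On the second principal component (7.83% of variance) it lay at 47.7, with hypoxia replicates 1 and 2 at -27.2 and -20.1. It was also the deepest hypoxia library, with 18447885 counts against 10980973 and 10619864. Its part in the DUSP1 and DUSP4 values can be read from the fits without it given above.

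**Figure D3:**
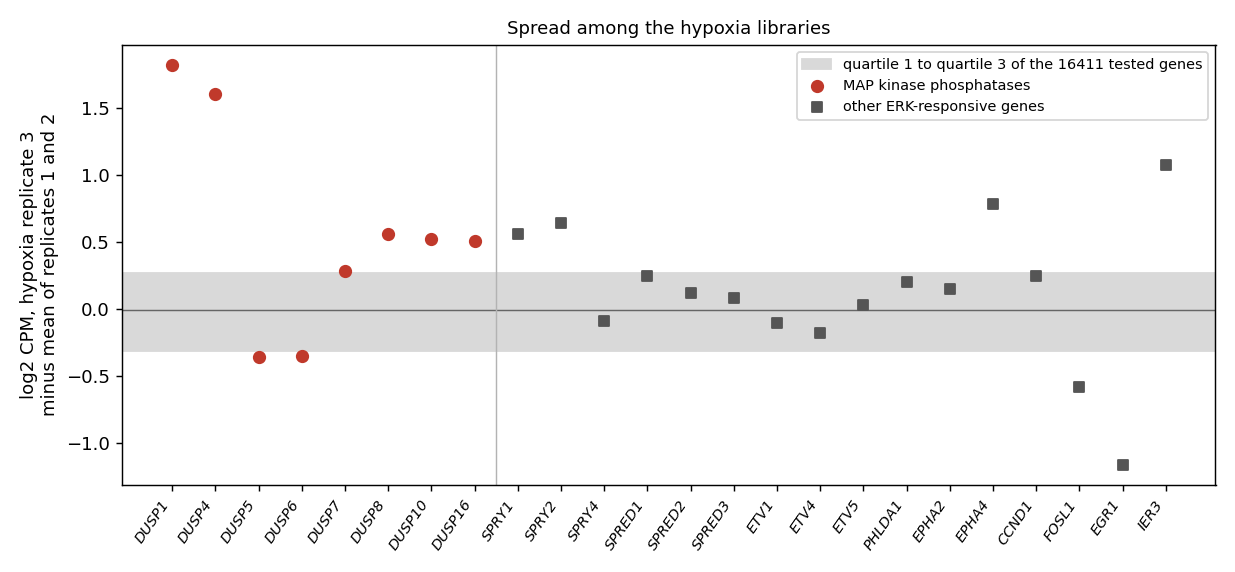
Log2 CPM of hypoxia replicate 3 minus the mean of hypoxia replicates 1 and 2, for the 8 tested phosphatase genes (red circles) and 16 other ERK-responsive genes (grey squares); the band runs from the lower to the upper quartile of all 16411 tested genes. DUSP1 (1.82) and DUSP4 (1.60) lie highest, IER3 (1.07) is the highest of the other genes and EGR1 (-1.16) the lowest.

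Other genes with a similar profile over the 6 libraries were sought by Euclidean distance in log2 CPM, centred on the normoxia mean. Nearest to DUSP1 were RAPGEF4, SLC6A6 and RASSF7, at distances of 0.46, 0.64 and 0.72. RAPGEF4 had few counts, 12, 11 and 65 in hypoxia, against 7, 7 and 8 in normoxia. SLC6A6, the taurine transporter, had 267, 256 and 595 CPM in hypoxia, against 93.7, 97.5 and 100 CPM in normoxia. Nearest to DUSP4 were TMEM171, ETV6 and BDNF, at 0.32, 0.36 and 0.45. TMEM171 also had few counts, 7, 9 and 56 in hypoxia, against 39, 38 and 40 in normoxia. ETV6, a transcriptional repressor of the ETS family, had 23.0, 21.7 and 52.1 CPM in hypoxia, against 42.5, 44.2 and 47.3 CPM in normoxia. Nearest to DUSP8 were NPIPB15, B9D2 and CTXN1, at 0.40, 0.41 and 0.41.

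Levels were compared between family members as CPM per kilobase of exon, over the union of all annotated exons. DUSP1 led, at 239 ± 189 in hypoxia and 49.1 ± 4.16 in normoxia, followed by DUSP5 at 41.1 ± 5.61 in hypoxia and 38.2 ± 1.79 in normoxia (SD, n = 3 each). DUSP4 came next, at 15.9 ± 11.1 in hypoxia and 20.6 ± 1.73 in normoxia, with DUSP7 at 15.1 ± 1.94 in hypoxia and 8.15 ± 0.663 in normoxia. In hypoxia the levels of DUSP4 and DUSP7 did not differ beyond their spread, and DUSP7 was the higher of them in hypoxia replicates 1 and 2. Over the length of the longest transcript, DUSP7 came to 25.6 in hypoxia and 13.8 in normoxia and DUSP4 to 20.8 in hypoxia and 27.1 in normoxia, so their order in hypoxia rests on the length used. DUSP16 (7.33 in hypoxia, 6.86 in normoxia), DUSP6 (4.22 and 4.62) and DUSP10 (1.78 and 1.96) were lower, in hypoxia and normoxia alike. The level of DUSP6 was taken over all 4632 of its exon bases, including the 1875 shared with AC024909.2. Without a stated strand setting, its place relative to DUSP16 is uncertain. DUSP8, DUSP2 and DUSP9 were each below 0.4 per kilobase in both groups.

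The summed level of the 10 genes per kilobase was 221, 201 and 553 in hypoxia, against 128, 124 and 139 in normoxia. Without DUSP1 the sums came close together, at 81.6, 80.3 and 95.9 in hypoxia, against 78.6, 78.7 and 85.4 in normoxia. DUSP1 made up 63.2%, 60.0% and 82.7% of the sum in hypoxia, against 38.4%, 36.3% and 38.4% in normoxia. The share of DUSP4 was 4.04%, 4.98% and 5.18% in hypoxia, against 14.9%, 16.6% and 16.2% in normoxia. The share of DUSP4 in hypoxia replicate 3 was thus close to that in the other hypoxia cultures, although its level was not.

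**Figure D4:**
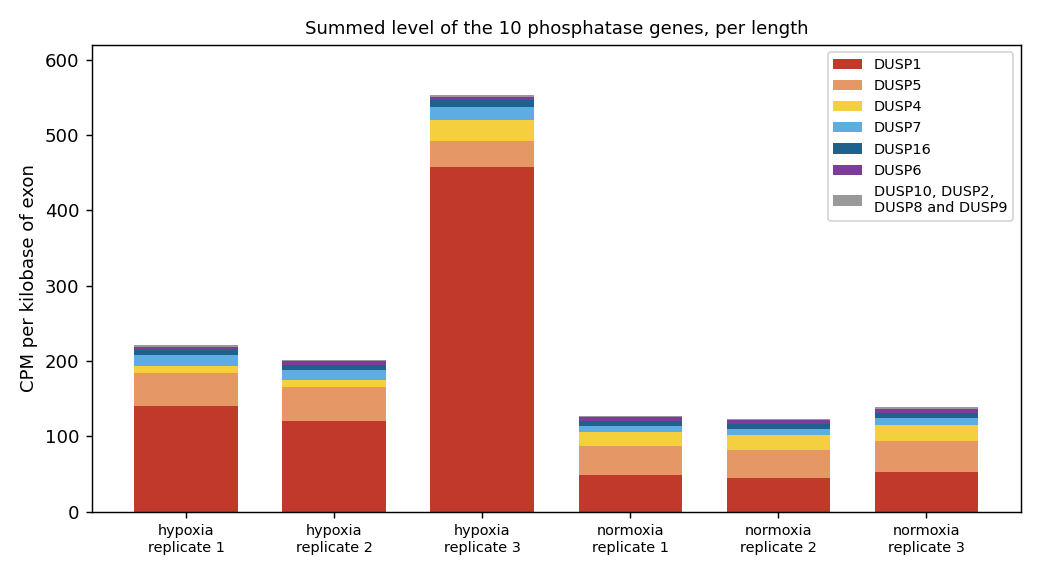
CPM per kilobase of exon of the 10 phosphatase genes, stacked for each library, with hypoxia on the left and normoxia on the right. DUSP1 makes up 60.0% to 82.7% of the bars in hypoxia and 36.3% to 38.4% in normoxia, and the rest of each bar is of similar height.

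Other genes of the pathway were counted beside all tested genes, of which 31.2% rose and 31.0% fell. Of 10 MAP kinases, all tested, 4 rose and 2 fell. MAPK7, which encodes ERK5, had 65.4, 70.3 and 95.1 CPM in hypoxia, against 16.6, 12.9 and 14.7 CPM in normoxia, a log2 change of 2.38 ± 0.16 (edgeR adjusted p = 6.99e-07). MAPK3, which encodes ERK1, rose by 1.20 ± 0.13 on the log2 scale, and MAPK10 (JNK3) fell by 1.46 ± 0.31. Of 6 tested MAP kinase kinases, 4 rose and 1 fell. MAP2K1 (MEK1), which phosphorylates ERK, rose by 1.82 ± 0.10, and MAP2K3, which phosphorylates p38, fell by 2.18 ± 0.16. Of 10 RAS, RAF and adaptor genes, 4 rose, HRAS by 1.48 ± 0.15 and BRAF by 0.81 ± 0.09 among them, and 2 fell, among them SOS2, an activator of RAS, by 0.37 ± 0.10. Without hypoxia replicate 3, 4 of the 10 were lower, where 33.4% of all tested genes were lower in that fit.

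Genes known to be transcribed in response to ERK, other than the phosphatases, were counted in the same way. Of 16, all tested, 7 rose and 5 fell, and both counts were the same without hypoxia replicate 3. IER3, an immediate-early survival gene, had 387, 284 and 698 CPM in hypoxia, against 82.6, 59.9 and 56.3 CPM in normoxia, a log2 change of 2.78 ± 0.38 (edgeR adjusted p = 0.0011). EGR1, an immediate-early transcription factor, had 305, 340 and 143 CPM in hypoxia, against 58.8, 60.0 and 66.1 CPM in normoxia, a log2 change of 2.09 ± 0.32 (edgeR adjusted p = 0.00138). IER3, like DUSP1, was highest in hypoxia replicate 3, whereas EGR1 was lowest there. SPRY1, a feedback inhibitor of receptor tyrosine kinase signalling, rose by 2.78 ± 0.17. EPHA4, PHLDA1 and ETV1 fell by 2.79 ± 0.46, 1.43 ± 0.10 and 1.27 ± 0.10. EPHA4 had few counts, 3, 1 and 7 in hypoxia, against 40, 37 and 40 in normoxia.

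Phosphatases outside the family were read beside the same background of 62.2% called. Of 17 atypical dual-specificity phosphatases, which lack the kinase-binding domain, 11 were tested, 5 rose and 2 fell. DUSP3, which acts on ERK and JNK, had 146, 150 and 163 CPM in hypoxia, against 47.6, 50.9 and 54.9 CPM in normoxia, a log2 change of 1.58 ± 0.10 (edgeR adjusted p = 3.59e-07). DUSP19 had 1.27, 0.408 and 0.722 CPM in hypoxia, against 7.37, 7.84 and 8.47 CPM in normoxia, and fell by 3.31 ± 0.32. Of 10 genes for other phosphatases that act on MAP kinases, or for their subunits, 7 were tested, 2 rose and 4 fell. These counts include PPP2R1A, which rose, and PPP2R1B, which fell, both for scaffold subunits of PP2A. PPM1D rose by 0.98 ± 0.21, and PPP2CA, a catalytic subunit of PP2A, fell by 1.08 ± 0.16. Of 11 kinases activated by MAP kinases, 10 were tested, 3 rose and 4 fell, with MKNK2 up by 1.29 ± 0.13 and RPS6KA5 (MSK1) down, at a log2 change of -1.63 ± 0.18.

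DUSP1 and several of its relatives have short-lived mRNAs with AU-rich elements. Of 8 proteins that bind such elements, all tested, 2 rose and 3 fell at the RNA level. Among all tested genes 31.2% rose and 31.0% fell. TIAL1 rose by 0.52 ± 0.09 and ZFP36L1 by 0.38 ± 0.09, whereas TIA1 fell by 1.38 ± 0.17. Without hypoxia replicate 3, 5 of the 8 were lower, where 33.4% of all tested genes were lower in that fit. ZFP36, which encodes tristetraprolin, had 42.0, 34.4 and 43.3 CPM in hypoxia, against 34.7, 33.2 and 30.2 CPM in normoxia, and did not pass the test. Transcription and mRNA decay were not measured separately.

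The labels were checked on known hypoxia targets and cell markers. All 6 hypoxia check genes rose, with NDRG1 at 8887, 9737 and 10770 CPM in hypoxia, against 99.4, 111 and 125 CPM in normoxia. Of 9 meningioma and arachnoid markers, 5 were tested, 4 rose and 1 fell. VIM and DSP were abundant in both groups, whereas PTGDS, S100B, PGR and SLC47A1 were near 0. SSTR2, the marker that fell, was also low, with 0.211, 0.51 and 0.181 CPM in hypoxia, against 1.15, 0.735 and 0.642 CPM in normoxia. CRABP2 had 183, 154 and 217 CPM in hypoxia, against 2.84, 2.45 and 4.26 CPM in normoxia. MUC1 had 21.6, 28.9 and 26.7 CPM in hypoxia, against 5.59, 6.99 and 5.55 CPM in normoxia. Leukocyte markers summed to 0.815 to 2.0 CPM in hypoxia and 1.75 to 2.75 CPM in normoxia, and endothelial markers to 4.85 to 7.95 CPM in hypoxia and 16.0 to 19.3 CPM in normoxia. Neural and glial markers summed to 12.3 to 15.3 CPM in hypoxia and 17.5 to 22.8 CPM in normoxia. Of these markers, 1 of 8 leukocyte genes was tested and did not pass, 3 of 6 endothelial genes were tested and 2 fell, and 5 of 6 neural and glial genes were tested, of which 1 rose and 2 fell. Without hypoxia replicate 3, no neural or glial gene was higher and no meningioma marker was lower. Mitochondrial transcripts took 2.05% to 3.05% of counts in hypoxia and 6.42% to 7.29% in normoxia, and their part in the results was not tested. All libraries came from the IOMM-Lee line. In such bulk libraries, fewer cells expressing a gene and less RNA per cell cannot be told apart.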

How the data were processed

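RNA was sequenced from 6 libraries of IOMM-Lee cells, 3 in hypoxia and 3 in normoxia. The authors deposited raw read counts per Ensembl gene. Per the submitters' processing notes, the build was GRCh38.p13 and the tools included featureCounts 2.0.1, HISAT2 2.1.0 and fastp 0.20.1. Neither the strand setting nor the release of the annotation is given in the sources. A second table, of normalized values, was not used here. A line naming no gene held 0.00243% of counts and was left out. Totals were 10980973, 10619864 and 18447885 counts in hypoxia and 19554178, 14685317 and 16049763 in normoxia, so 3 counts in 1 library correspond to 0.133 to 0.316 CPM.

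Groups came from the sample titles, which call the libraries biological replicates. Counts were analysed in R 4.3.3 with edgeR 4.0.16: filterByExpr (minimum count 10, minimum total 15), TMM, robust quasi-likelihood F test and Benjamini-Hochberg adjustment over 16411 genes, with a threshold of 0.05. SE is the log2 change divided by the square root of F. Log2 CPM used a prior count of 2. Alternatives were DESeq2 1.42.0, limma-voom (limma 3.58.1), other scalings and filters, an adjusted p of 0.01, a replicate block and leaving out each library. Exon lengths and coordinates are from GENCODE on GRCh38, and upstream sequences from RefSeq on GRCh38.p14. The scripts were tested on simulated data.

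Members and gene lists were chosen with earlier results of these data known. From each list, up to 3 genes per direction with the largest called change and a mean CPM of at least 1 could be named, and not all are. ZFP36, VIM, SSTR2, PTGDS, S100B, PGR and SLC47A1 fall outside that rule and were named after their values were seen.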

Additional observations from a re-analysis of the deposited data

How the results depend on the processing

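Of the 10 phosphatases, the number called higher was 2, and it was 1 with no low-count filter and 1 at an adjusted p under 0.01, where DUSP7 alone was called. Leaving out 1 library at a time gave 1 to 3 higher and 0 to 1 lower, against 0 lower with all libraries. Over the same fits, the counts among all tested genes ran from 4391 to 5168 higher and from 4379 to 5486 lower. With library totals alone 1 member, DUSP6, was lower. That scaling moved the median of all genes to -0.30 and gave 3421 genes higher and 6905 lower, against 5117 higher and 5091 lower with TMM. The log2 changes of DUSP5, DUSP10, DUSP16 and TMEM171, none of which passed the test, reversed under some settings. DUSP5 was -0.20 with library totals and -0.02 with no filter, and DUSP16 was -0.21 and -0.01 under the same settings. Over the fits leaving out 1 library, DUSP16 ranged from -0.12 to 0.18, DUSP10 from -0.36 to 0.02 and TMEM171 from -1.37 to 0.09. The cause was not tested.

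The deviations of same-numbered libraries from their group means correlated at -0.106, 0.0864 and -0.0378. For differently numbered libraries the values ran from -0.142 to 0.182. With 3 libraries per group, they cannot show whether the replicate numbers pair the samples. A replicate block gave 9768 called genes, against 10208 without it, and changed no member's call, with DUSP1 at a log2 change of 2.0 (edgeR adjusted p = 0.0204). DUSP2 and DUSP9 had too few counts for the filter.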
